A study of Mus musculus with 18 samples.

Results

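Chromatin accessibility was examined at the loci of 10 genes that encode transcriptional regulators of endothelial cells (ECs), Sox7, Sox17, Sox18, Sox4, Gata2, Gata6, Tal1, Lmo2, Mef2c and Mef2a. The peaks in 18 ATAC-seq lists, on chromosomes 1 to 19, X and Y, were joined into one region if they shared 1 bp or more, and a region was kept when 2 or more lists held a peak in it. Of the 47338 regions obtained, 74 were assigned to the 10 genes. A region was assigned when the transcription start site (TSS, mm10 RefSeq) nearest to its midpoint belonged to one of them. It was also assigned when its midpoint lay within the gene body. Sox17 had 14 regions, Mef2c 12, Mef2a 11, Gata2 8, Tal1 7, Sox7 6, Sox4 5, Sox18 4, Lmo2 4 and Gata6 3, against a median of 4 among the 6764 genes with at least 3 regions. Sox17 had more regions than 95.1% of those genes, and Mef2c more than 92.0%.

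ATAC-seq uses a transposase that inserts adapters into accessible DNA, and it was run on ECs freshly sorted from mouse lungs as cells positive for CD31 and negative for CD45, EpCAM and GFP. All mice were of the FVB strain and carried a Col1α1-GFP reporter, in which a collagen I promoter drives GFP, so that cells which had switched on the reporter were left out by the sort. Animals of 2 months (young) and 18 months (aged) were used, with the lungs taken 30 days after an intratracheal dose of bleomycin at 1 U/kg, which injures the lung and causes fibrosis, or of PBS (sham). The lists fell into Young Sham (n = 5), Young Bleo (n = 4), Aged Sham (n = 4) and Aged Bleo (n = 5), and the study asked how aging and injury change the accessible chromatin of lung ECs. Each sample came from 1 mouse, as the study describes it.

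SOX7, SOX17 and SOX18 are the SOXF factors, which bind DNA through an HMG box and act in arterial and lymphatic specification and in vascular integrity, and SOX4 belongs to the SOXC group. GATA2 and GATA6 are zinc finger factors, of which GATA2 is active in endothelial and blood cells, while TAL1 is a basic helix-loop-helix protein that binds E-boxes as a dimer and is bridged to GATA factors by LMO2, which does not bind DNA itself. MEF2C and MEF2A are MADS box factors that bind an AT-rich sequence and are held inactive by class IIa histone deacetylases, and MEF2 factors take part in the response of ECs to flow. Enhancers of such genes often lie far from the promoter, inside introns or in flanking intergenic DNA.

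Each list held between 21050 and 40883 peaks, with means of 35239 in Young Sham, 36699 in Young Bleo, 28882 in Aged Sham and 31093 in Aged Bleo. Promoters of the endothelial markers Cdh5, Tie1, Kdr, Erg, Cldn5 and Egfl7 carried a peak in all 18 lists, that of Pecam1 in 17 and that of Tek in 15. Of 6 leukocyte markers none had a promoter region, and of 6 epithelial and 6 fibroblast or mural markers only Foxj1 and Pdgfra did, each in 18 lists. The labels give no sequencing lane, and a code in the names of the lists was read as the lane. It put the 5 Aged Bleo lists and Aged Sham 4 in lane 6, Aged Sham 1 to 3 with Young Bleo 1 to 3 in lane 7, and Young Bleo 4 with the 5 Young Sham lists in lane 8. No Young Sham list shared a lane with an aged list. For aged samples against Young Sham the lane and the age therefore cannot be told apart, and values within lanes are given where a lane holds both groups.

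A region is named here by its gene and the distance in kb from its midpoint to the nearest TSS of that gene, with a minus sign for upstream. Strength is the fold enrichment that MACS2 gave the highest peak of the region, expressed as a list percentile, the rank among all peaks of the same list with 100 for the highest. The number of fragments over the summit was solved from the deposited values and came out whole, to within 0.05, for at least 99.9873% of the peaks of each list.

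The sequences below, from the mm10 genome on the plus strand, are the 200 bp around the summit of 10 regions, chosen from the strong distal regions and from those that differed between groups. Capitals mark matches on either strand, shown as the reverse complement where the match was on the minus strand. The letters searched were CAGGAAG for ETS factors and AACAAT for SOX factors. For GATA factors the letters AGATAA were used and for basic helix-loop-helix dimers an E-box with the letters CAGATG. MEF2 sites were searched as TAAAAATA and also as TATTTATA, and overlaps between motifs were allowed. The first 3 are from Sox17, at chr1:4571723-4571922, chr1:4544087-4544286 and chr1:4516671-4516870.
Sox17 −74.5 kb: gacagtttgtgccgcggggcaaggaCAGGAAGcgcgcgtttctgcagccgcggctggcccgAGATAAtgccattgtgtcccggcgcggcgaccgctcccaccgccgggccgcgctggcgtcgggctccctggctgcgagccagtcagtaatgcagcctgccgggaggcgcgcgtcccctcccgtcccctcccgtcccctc
Sox17 −46.9 kb: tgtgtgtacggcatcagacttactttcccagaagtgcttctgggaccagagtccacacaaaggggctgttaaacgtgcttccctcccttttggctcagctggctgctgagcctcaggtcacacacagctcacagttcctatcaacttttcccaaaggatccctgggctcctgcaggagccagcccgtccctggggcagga
Sox17 −19.4 kb: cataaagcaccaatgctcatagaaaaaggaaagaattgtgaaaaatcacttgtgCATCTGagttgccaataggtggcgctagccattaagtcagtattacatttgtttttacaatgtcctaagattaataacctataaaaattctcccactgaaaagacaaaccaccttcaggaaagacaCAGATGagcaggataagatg
The next are from Sox7 at chr14:63962800-63962999, Gata2 at chr6:88152222-88152421, Tal1 at chr4:115047864-115048063 and Lmo2 at chr2:103982295-103982494.
Sox7 +19.2 kb: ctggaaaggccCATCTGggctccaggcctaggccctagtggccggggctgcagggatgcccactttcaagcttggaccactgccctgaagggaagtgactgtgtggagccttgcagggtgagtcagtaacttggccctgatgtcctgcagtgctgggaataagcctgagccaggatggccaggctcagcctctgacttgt
Gata2 −41.5 kb: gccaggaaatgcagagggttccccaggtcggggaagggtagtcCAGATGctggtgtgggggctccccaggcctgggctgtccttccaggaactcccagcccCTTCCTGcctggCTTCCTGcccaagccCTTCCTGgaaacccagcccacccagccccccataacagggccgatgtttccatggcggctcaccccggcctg
Tal1 −8.5 kb: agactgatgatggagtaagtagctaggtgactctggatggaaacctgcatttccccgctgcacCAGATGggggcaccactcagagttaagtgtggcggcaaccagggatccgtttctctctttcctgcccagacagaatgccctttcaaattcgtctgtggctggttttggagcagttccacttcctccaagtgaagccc
Lmo2 +12.1 kb: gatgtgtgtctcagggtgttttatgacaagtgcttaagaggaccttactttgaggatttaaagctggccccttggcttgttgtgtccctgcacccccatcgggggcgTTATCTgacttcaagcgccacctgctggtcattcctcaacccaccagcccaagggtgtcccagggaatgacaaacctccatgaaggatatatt
The last are from Mef2c at chr13:83572150-83572349 and chr13:83652582-83652781 and from Mef2a at chr7:67451453-67451652.
Mef2c −1.3 kb: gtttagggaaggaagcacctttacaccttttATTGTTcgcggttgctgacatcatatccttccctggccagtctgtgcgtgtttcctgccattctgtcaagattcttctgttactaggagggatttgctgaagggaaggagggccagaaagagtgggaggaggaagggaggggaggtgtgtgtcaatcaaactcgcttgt
Mef2c +78.9 kb: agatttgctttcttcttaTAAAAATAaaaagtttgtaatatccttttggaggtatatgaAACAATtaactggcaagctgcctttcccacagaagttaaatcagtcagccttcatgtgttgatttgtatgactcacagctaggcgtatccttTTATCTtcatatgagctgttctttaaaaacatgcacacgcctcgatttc
Mef2a −78.8 kb: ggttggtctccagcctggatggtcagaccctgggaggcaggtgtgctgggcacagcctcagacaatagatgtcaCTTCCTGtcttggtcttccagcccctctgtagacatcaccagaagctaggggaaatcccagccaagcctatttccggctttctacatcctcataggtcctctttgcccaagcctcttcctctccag
The strongest distal region of Sox17 held an ETS match at positions 26 to 32 and a GATA match at positions 62 to 67, counted from 1 at the left end. In the Mef2c intron at +78.9 kb the window held a MEF2, a SOX and a GATA match, and that at Sox17 −46.9 kb held none of the 5 motifs. Over the 74 regions, GATA letters were found in 15 windows (20.3%, against 9.67% of all 47338 regions), ETS letters in 20 (27.0% against 19.9%), MEF2 letters in 5 (6.76% against 2.72%), E-box letters in 11 (14.9% against 13.4%) and SOX letters in 8 (10.8% against 12.8%). All 15 windows with GATA letters lay outside promoters, where they made up 23.8% of 63 windows, against 11.6% of all regions outside promoters. Sox17 held 5 of them among its 14 regions, and Mef2c held 3 of the 5 windows with MEF2 letters among its 12. These matches are descriptions, to which no test was applied.

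Of the 74 regions, 36 (48.6%) carried a peak in all 18 lists, against 36.8% of all regions, and the others were found in 14 to 17 lists (16 regions), 6 to 13 lists (10) or 2 to 5 lists (12). Intergenic DNA held 38 of them (51.4%, against 34.9% of all regions), introns 17 (22.97% against 36.9%), promoters (from 1000 bp before a TSS to 100 bp past it) 11 (14.9% against 21.3%), other exons 5 and UTRs 3. Peaks in every list were found at 9 of the 11 promoter regions (81.8%, against 79.2% of all promoter regions), at 19 of the 38 intergenic regions (23.8% of all) and at 47.1% of the intronic ones (21.5% of all). None of the 5 exonic and 3 UTR regions of the 10 genes was called in all lists, against 50.8% of all exonic and 57.1% of all UTR regions. By distance to the nearest TSS of the gene they were assigned to, 17 regions (22.97%) lay over 50 kb away. Among these, Mef2a +128.8 kb and +112.8 kb and Mef2c +78.9 kb and +81.5 kb were closer to a TSS of another gene. Of all regions 21.7% lay over 50 kb from the nearest TSS of any gene, so the 2 shares rest on different distances.

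**Figure D1:**
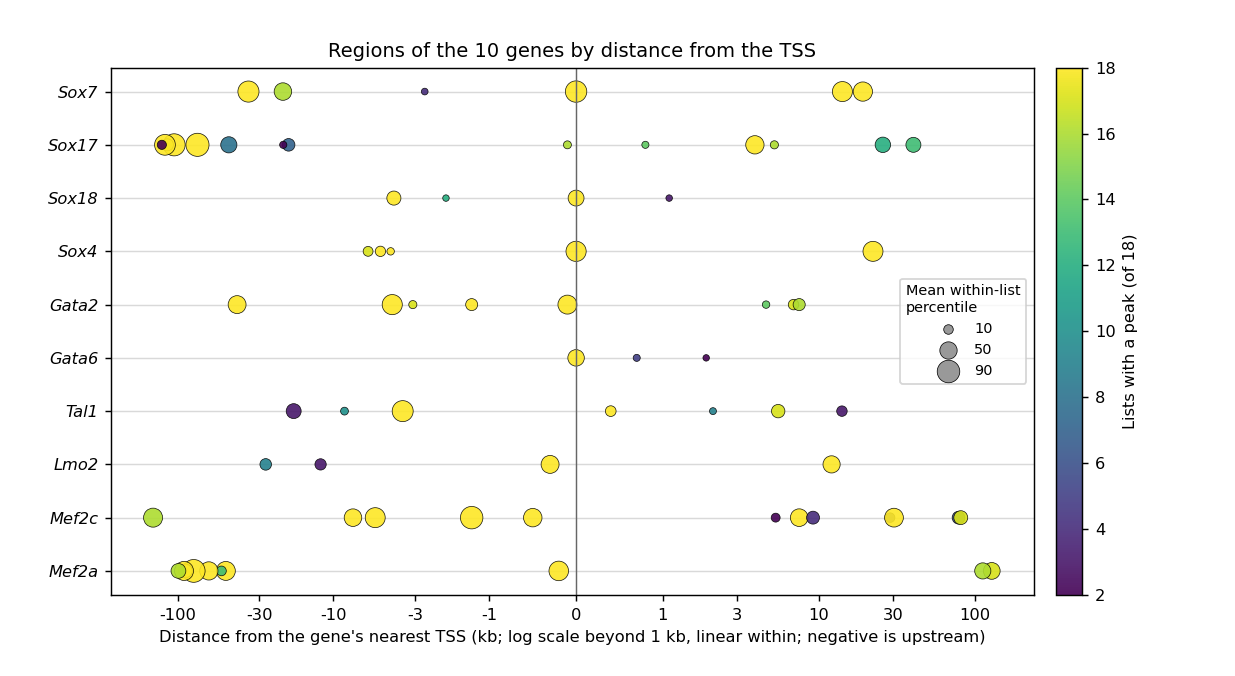
The 74 regions of the 10 loci by signed distance from the nearest TSS of their gene in kb (x axis) and gene (y axis), with colour for the number of lists that called the region and marker size for its mean list percentile. The farthest region called in every list lay at Sox17 −120.4 kb, and the farthest such region of Mef2a at −90.9 kb.

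SOXF genes differed in where their strong regions lay. Sox7 (chr14:63943706-63950732, plus strand) was strongest at its promoter, with a mean list percentile of 80.4 (range 73.7 to 85.3) and 104 to 307 fragments, and nearly as strong at −35.1 kb, inside an intron of the neighbouring Pinx1, with a mean of 78.0 and the higher percentile in 8 of the 18 lists. Sox17 (chr1:4490928-4497354, minus strand) had a weak promoter, at a mean list percentile of 4.66 in the 16 lists that called it. Its strongest region, chr1:4571495-4572230, lay in intergenic DNA at −74.5 kb with a mean of 94.8 (91.5 to 98.3), and those at −105.2 kb and −120.4 kb had means of 86.2 and 75.1. Fragments at Sox17 −74.5 kb numbered 376, 422, 468, 422 and 340 in Young Sham, 298, 330, 348 and 293 in Young Bleo, 203, 288, 210 and 278 in Aged Sham, and 322, 309, 213, 129 and 167 in Aged Bleo. The Young Sham values were the highest as a group, with only Young Bleo 3 above the lowest of them, while the group means of the list percentile lay between 92.9 and 96.4. Sox18 (chr2:181669837-181671640, minus strand), mutated in a syndrome with lymphatic defects, had its strongest region at the promoter, with a mean list percentile of 40.9, and its strongest distal region at −4.1 kb, with a mean of 30.5. All 5 regions of Sox4 (chr13:28948919-28953699, minus strand) carried a peak in 17 or 18 lists, with the promoter (70.6) and a region at +22.3 kb, past the 3′ end of the gene (69.2), close together and the latter higher in 10 of 18 lists.

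GATA2 is required for the upkeep of endothelial and blood stem cell identity, and its gene (chr6:88193891-88207032, plus strand) carried 4 regions called in every list. The strongest was at −4.2 kb, with a mean list percentile of 70.1 and 58 to 220 fragments, ahead of the promoter at 61.5 and an intergenic region at −41.5 kb (chr6:88152094-88152633) at 54.0. Gata6 (chr18:11052510-11085635, plus strand) had a single region called in all lists, at the promoter it shares with the antisense transcript Gata6os, with a mean of 44.6. Its other regions, at +0.7 kb and +1.9 kb, were called in 5 and 2 lists at mean list percentiles of 2.10 and 0.592, so besides the region at the TSS this gene had only weak peaks in few lists.

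At Tal1 (chr4:115056426-115071755, plus strand) the strongest region lay upstream at −3.6 kb, with a mean list percentile of 77.1 and 66 to 254 fragments, whereas the promoter region at +0.4 kb had a mean of 14.5. At Lmo2 (chr2:103957995-103981878, plus strand) the promoter at −0.3 kb had a mean of 54.3 and a region at +12.1 kb (chr2:103982195-103982577), just past the 3′ end of the gene, one of 49.1. The order depended on the group. In all 5 Young Sham lists the region at +12.1 kb was above the promoter, with group means of 66.0 and 52.3, whereas over all 18 lists the promoter was the higher in 11. Mef2c (chr13:83504034-83667079, plus strand) has several start sites, and its strongest region, at a mean of 89.2, lay −1.3 kb from one of them within an intron of longer transcripts. The Mef2c region at the promoter itself had a mean of 57.9. Mef2a (chr7:67231163-67372858, minus strand) had 8 intergenic regions between −49.0 and −98.7 kb, of which that at −78.8 kb (chr7:67451324-67451909) had a mean of 92.3 (86.1 to 97.2) and the promoter 65.8. At Sox17, Tal1, Mef2c and Mef2a the strongest region outside the promoter was above the promoter in every list with both, and at Gata2 in 16 of 18. Sox18 showed the opposite order in 17 of 18 lists, while at Sox7, Sox4 and Lmo2 either region could be the higher.

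The number of the 74 regions that carried a peak was 65, 66, 61, 68 and 58 in Young Sham (63.6 ± 4.04, SD, n = 5), 60, 63, 63 and 57 in Young Bleo (60.75 ± 2.87, n = 4), 49, 59, 52 and 57 in Aged Sham (54.25 ± 4.57, n = 4), and 62, 65, 50, 41 and 48 in Aged Bleo (53.2 ± 10.03, n = 5). Aged Sham overlapped Young Sham only through its highest sample, and Aged Bleo had the widest range, from 41 to 65. The means correspond to 85.9%, 82.1%, 73.3% and 71.9% of the 74 regions, against 71.9%, 75.1%, 59.2% and 62.9% of all 47338 regions. Within lane 7, Young Bleo 1 to 3 called 62 of them on average (60 to 63) and Aged Sham 1 to 3 called 53.3 (49 to 59). In lane 6, Aged Sham 4 called 57 and the Aged Bleo lists 53.2 on average, and in lane 8 Young Bleo 4 called 57 and the Young Sham lists 63.6. The list with the fewest peaks, Aged Bleo 4, also called the fewest of these regions, and the part that the number of peaks per list has in the differences was not tested for the total.

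**Figure D2:**
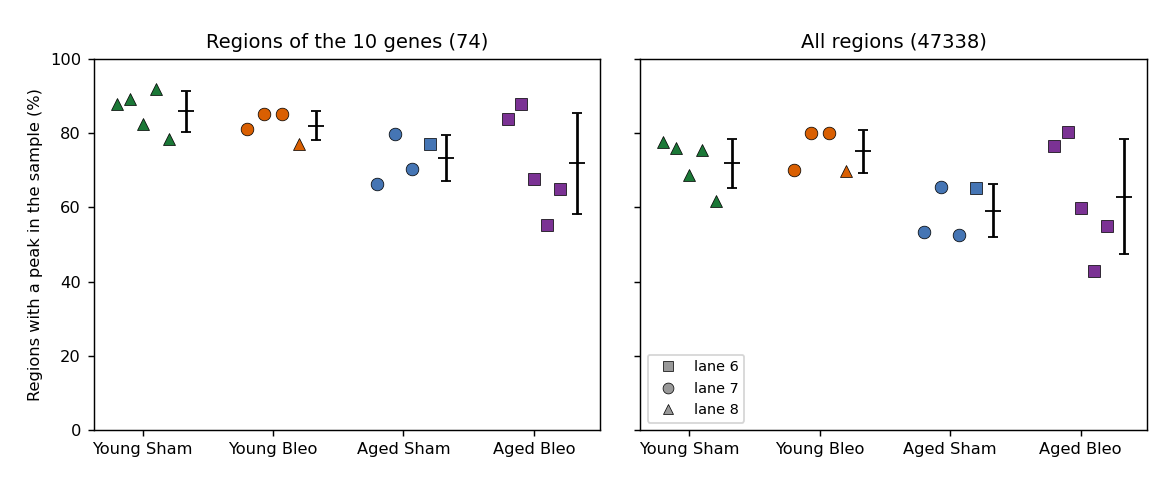
Percentage of the 74 regions (points, 1 per sample) and of all 47338 regions that carried a peak, by group, with marker shapes for the sequencing lane and a tick with error bars for the group mean and SD. Young Sham samples called 58 to 68 of the 74 regions and Aged Bleo samples 41 to 65.

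Aged Sham was compared with Young Sham for differences with age in uninjured lung ECs, although no lane held both groups. Of the 74 regions, 3 were called in fewer Aged Sham samples at a two-sided Fisher's exact p of at most 0.05, which is 4.05% of them against 4.9% of all regions, and none was called in more (0.264% of all regions). At Sox17 −19.4 kb (chr1:4516614-4516993) the summit held 12, 22, 13, 17 and 12 fragments in Young Sham, and no Aged Sham list had a peak there (Fisher's exact p = 0.00794, the smallest that 4 against 5 samples can give). It also had no peak in any Aged Bleo list (p = 0.00794 by the same exact test). Young Bleo 2 and 3 had peaks with 13 and 15 fragments, so that a peak was found in 7 young lists and in no aged list. The region thus entered the set only through young lists, although the 2 Young Bleo lists alone would have met the limit of 2 lists. In lane 7 it was called in 2 of 3 Young Bleo and 0 of 3 Aged Sham samples. All 7 peaks were small, between list percentiles 12.3 and 43.8, and the call remained when any 1 sample was left out. When each list was cut to its 21050 peaks of lowest p, the length of the shortest list, the region dropped out and neither call could be made. The part of list length in these calls was not tested further.

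The exon region of Sox17 at +0.8 kb (chr1:4496358-4496767), annotated as UTR, held 58, 68, 61, 60 and 38 fragments in Young Sham and 46, 49, 52 and 49 in Young Bleo. Among Aged Sham only replicate 4 had a peak, with 41 fragments (exact Fisher p = 0.0476), and Aged Bleo 1, 2, 3 and 5 had 50, 59, 25 and 28. Its list percentile was low throughout, at a mean of 2.23, and in lane 7 all 3 Young Bleo but none of the 3 Aged Sham samples called it. Tal1 −8.5 kb (chr4:115047790-115048109) held 29, 40, 35 and 27 fragments in Young Sham 1, 2, 4 and 5, where Young Sham 3 had no called peak, and 38, 30, 45 and 26 in Young Bleo. No Aged Sham list had a peak there (exact Fisher p = 0.0476) and Aged Bleo 1 and 2 had 29 and 25 fragments. Here too the 3 Young Bleo samples of lane 7 were called and the 3 Aged Sham samples of that lane were not.

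Adjusted over all 47338 regions (Benjamini-Hochberg), the smallest p of the comparison was 0.786, so none of the 3 calls holds after correction. The calls at Sox17 +0.8 kb and Tal1 −8.5 kb were each lost when any one of the 9 samples compared was left out, save Aged Sham 4 for the first and Young Sham 3 for the second, with a Fisher's exact p of up to 0.143. With lists of equal length 2 of 57 regions passed (3.51%, against 2.92% of all regions in either direction), both called less in Aged Sham (1.56% of all). These were Sox17 +0.8 kb and Gata2 −3.1 kb, each called in 4 of 5 Young Sham and 0 of 4 Aged Sham samples (Fisher's exact p = 0.0476), whereas Tal1 −8.5 kb dropped out. Of the 74 regions 22 (29.7%) were called in a smaller share of Aged Sham than of Young Sham samples and 4 (5.41%) in a larger one, against 38.4% and 10.1% of all regions.

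Summed by gene, Tal1 had 7, 7, 4, 6 and 5 called regions in Young Sham, 5, 5, 5 and 4 in Young Bleo, 3, 4, 3 and 3 in Aged Sham, and 5, 4, 3, 2 and 3 in Aged Bleo. Aged Sham lay at or below the lowest Young Sham value, with a difference in means of −2.55 regions (two-sided exact permutation p = 0.0238, adjusted p = 0.262 over 6764 genes), and Aged Bleo differed from Young Sham by −2.4 (exact permutation p = 0.0397, adjusted p = 0.540). Both tests count Tal1 −18.0 kb and Tal1 +14.1 kb, which were called in Young Sham 1, 2 and 4 alone and so entered the region set only through the group that is high. Without them the 5 other regions gave 5, 5, 4, 4 and 5 called in Young Sham, 3, 4, 3 and 3 in Aged Sham, and 5, 4, 3, 2 and 3 in Aged Bleo. The differences in means were then −1.35 and −1.2 regions, given with no test since these regions were set aside after their values were seen. At that unadjusted threshold 18.2% of all genes changed in number of called regions in Aged Sham and 8.83% in Aged Bleo, each against Young Sham. When each list was cut to the 21050 peaks of lowest p, the differences at Tal1 were 0.20 and −0.60 regions. In the comparison with Aged Sham the call held only without Young Sham 3 or without Aged Sham 2 among the 9 samples left out in turn (exact permutation p of up to 0.0571), and in that with Aged Bleo only without Young Sham 3, Young Sham 5, Aged Bleo 1 or Aged Bleo 2 among 10 (p of up to 0.0556). Sox17 went from 12, 11, 11, 12 and 10 called regions in Young Sham to 7, 9, 7 and 11 in Aged Sham (difference −2.7, exact permutation p = 0.0556). These counts include Sox17 −19.4 kb, which was called in young lists alone. Sox4, in contrast, had 5 called regions in every sample but Aged Bleo 5, which had 4.

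Besides these, 3 regions of the TAL1 and LMO2 pair were found in Young Sham 1, 2 and 4 and in no other list, namely Tal1 −18.0 kb, in an exon of Stil, Tal1 +14.1 kb and Lmo2 −12.1 kb. They held 16, 20 and 16, then 24, 24 and 20, then 11, 15 and 13 fragments. Gata6 +1.9 kb was also limited to Young Sham, in replicates 2 and 4. The 4 are 5.41% of the 74 regions, and 1169 of all 47338 regions (2.47%) were likewise called in Young Sham alone. Young Sham 1, 2 and 4 are also the longest lists of their group, with 38747, 37087 and 36956 peaks against 33331 and 30073, and the part of list length was not tested. None of the 4 could reach the threshold, since a region in 3 of 5 samples against none of 4 or of 5 does not pass the Fisher's exact test.

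**Figure D3:**
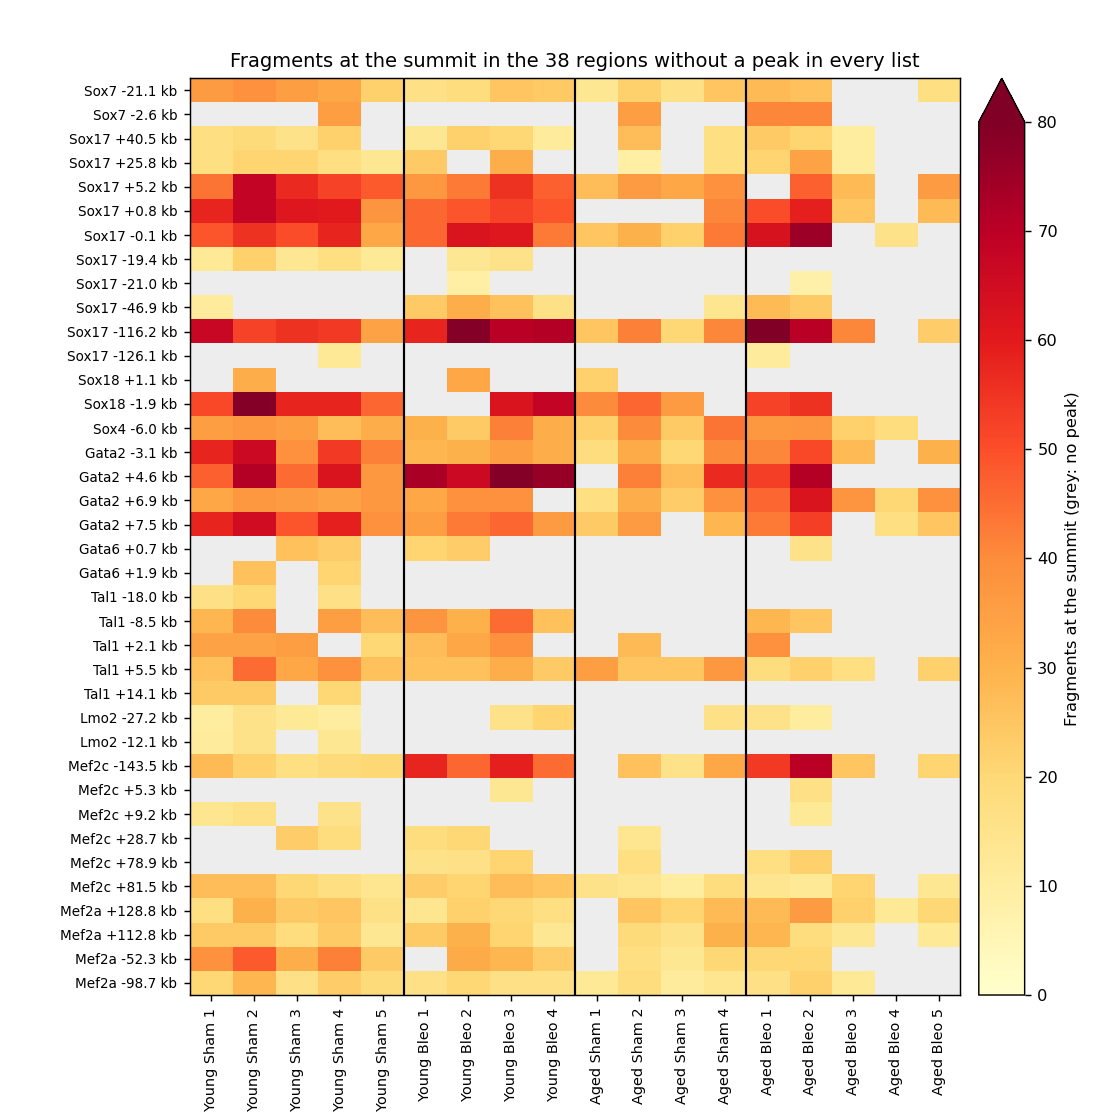
Fragments at the summit (colour scale) for the 38 regions of the set without a peak in every list (rows) in each of the 18 samples (columns), with grey cells where no peak was called. Sox17 −19.4 kb is coloured in 5 Young Sham and 2 Young Bleo columns and grey in all aged columns.

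Young Bleo was compared with Young Sham for the response of young ECs to injury. A pair of regions was called in more Young Bleo samples, 2.70% of the 74 against 3.98% of all regions, and none in fewer (1.96% of all). Sox17 −46.9 kb (chr1:4543973-4544510) had a peak in Young Sham 1 alone, with 11 fragments, and in all Young Bleo samples, with 24, 31, 26 and 16 (Fisher's exact p = 0.0476). Peaks were also found there in Aged Sham 4 (14 fragments) and in Aged Bleo 1 and 2 (28 and 24). Young Bleo 4, which shared a lane with the Young Sham samples, had more fragments than Young Sham 1, the only Young Sham sample called. Its background coverage was also higher, at 1.73 against 1.26 fragments, and the fold enrichments of the 2 peaks were 6.23 and 5.30. In lane 7 the 3 Young Bleo samples were called and the 3 Aged Sham samples were not. The Mef2c intron at +78.9 kb (chr13:83652181-83652827), closer to a TSS of the noncoding C130071C03Rik than to one of Mef2c, had no peak in any Young Sham sample and 15, 16 and 21 fragments in Young Bleo 1 to 3 (Fisher's exact p = 0.0476). It was not called in Young Bleo 4, so every sample of lane 8 lacked it and lane and bleomycin cannot be told apart at this region. Aged Sham 2 had 17 fragments there, and Aged Bleo 1 and 2 had 17 and 22.

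The smallest adjusted p over all regions was 0.535. Without any one of the 9 samples the first call was lost except without Young Sham 1, and the second except without Young Bleo 4 (Fisher's exact p of up to 0.143 for each). No gene of the set changed in its number of called regions, against 12.4% of all genes at an exact permutation p of at most 0.05. Cutting each list to the 21050 peaks of lowest p left 57 regions and 8 testable genes of the set. Of these regions 5 were called in fewer Young Bleo samples (3.19% of the 27849 regions then obtained) and 1 in more (3.66%). In either direction the share was 10.53%, against 6.84% of all. The region called more was Sox17 −46.9 kb. Those called less were Gata2 +7.5 kb, in all 5 Young Sham and no Young Bleo sample (Fisher's exact p = 0.00794), and Gata2 −3.1 kb, Tal1 +5.5 kb, Sox17 +0.8 kb and Sox7 −21.1 kb (exact p = 0.0476 each). The 4 genes that passed compare with 18.8% of all genes tested.

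The distal Mef2c region at −143.5 kb (chr13:83360334-83360824) had a peak in 16 lists and so was outside the strength test over regions called everywhere. It held 28, 22, 17, 19 and 20 fragments in Young Sham and 58, 46, 59 and 45 in Young Bleo. These groups did not overlap. Aged Sham 2, 3 and 4 had 26, 15 and 33, and Aged Bleo 1, 2, 3 and 5 had 54, 70, 25 and 21. Mean list percentiles were 43.8 in Young Sham, 79.5 in Young Bleo, 54.5 in Aged Sham and 72.5 in Aged Bleo. When regions called in at least 14 samples were tested, leaving out the lists without a peak, its percentile was 45.0 points higher in Young Bleo (SE 8.54, limma adjusted p = 0.00948) and 40.7 points higher in Aged Bleo (SE 8.54, adjusted p = 0.0101) than in Young Sham. Young Bleo 4, the sample in the lane of Young Sham, was at list percentile 77.9 there, above the highest Young Sham sample at 59.0. In that wider test Sox7 −21.1 kb was 28.7 points weaker in Young Bleo (difference −28.7, SE 6.14, adjusted p = 0.0173) and Gata2 +7.5 kb, in a UTR, 12.1 points weaker (difference −12.1, SE 2.49, adjusted p = 0.0141). The latter was also weaker in Aged Bleo, with a difference of −8.99 points (SE 2.49, limma adjusted p = 0.0336). In all, the wider test passed 2 of 52 regions as stronger and 3 as weaker in Young Bleo, against 1.53% and 2.13% of all regions tested, and 7 and 2 in Aged Bleo, against 3.10% and 6.07%. In Aged Sham it passed none, against 0.521% of all.

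Strength was then compared over the 17432 regions called in all lists, which include 36 of the 74. Here each region's fold enrichment was ranked among those 17432 regions of the same sample, which gives a common percentile, and differences are in percentile points with the SE from limma and Benjamini-Hochberg adjustment over 17432 regions. In Aged Sham against Young Sham 1 of the 36 was stronger (0.459% of all regions) and 1 weaker (0.539%), and in Young Bleo against Young Sham the same pair passed (1.32% stronger and 1.79% weaker over all). Aged Bleo against Young Sham had 7 stronger and 1 weaker, against 5.43% and 5.21% of all regions. None passed between Aged Bleo and Aged Sham (0.671% of all regions), between Aged Bleo and Young Bleo (0.201%) or for the interaction of age and bleomycin (0% of all). In these 3 contrasts limma left 7, 6 and 3 of the 36 at an unadjusted p of at most 0.05 (19.4%, 16.7% and 8.33%, against 16.1%, 16.98% and 9.33% of all regions). In log2 fragments, a scale chosen after seeing the data, 7 of the 36 passed between Aged Bleo and Aged Sham, where 20.7% of all regions did, and 1 between Aged Bleo and Young Bleo, where 2.46% did. Ranked instead among all peaks of the list, as in the list percentile, none of the 36 passed in Aged Sham (0.929% of all regions) or in Young Bleo (0.648%), each against Young Sham. In Aged Bleo 2 were weaker (6.96% of all) and none stronger (1.04%). Of the 12 calls by common percentile only that at Lmo2 +12.1 kb in Aged Bleo remained on this scale (limma adjusted p = 0.0139), and the other region was Mef2c −5.4 kb, at −13.9 points (SE 4.10, adjusted p = 0.0461). All contrasts with Young Sham share its 5 samples, so the calls are not independent of each other.

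Sox7 +19.2 kb (chr14:63962611-63963136), downstream of the gene, was stronger outside Young Sham. Its common percentiles were 23.4, 22.1, 12.53, 16.0 and 21.7 in Young Sham, 40.1, 43.4, 44.1 and 53.4 in Young Bleo, 31.8, 37.4, 42.7 and 43.1 in Aged Sham, and 51.7, 42.6, 44.2, 42.1 and 41.9 in Aged Bleo. Every sample outside Young Sham was above the highest Young Sham sample, and the highest of all, Young Bleo 4, shared their lane. The differences from Young Sham were 26.1 points in Young Bleo (SE 4.41, limma adjusted p = 0.00445), 19.6 in Aged Sham (SE 4.41, adjusted p = 0.0414) and 25.3 in Aged Bleo (SE 4.16, adjusted p = 0.00200). In list percentiles they were 18.1, 6.99 and 11.3 points, with limma adjusted p of 0.113, 0.444 and 0.129. With the lane as a covariate they were 34.2, 29.0 and 30.4 points with adjusted p of 0.227, 0.449 and 0.568. The Aged Sham call was lost in 10 of the 18 fits that left out 1 sample, among them each Young Sham sample and Aged Sham 2, 3 and 4 (adjusted p of up to 0.106).

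Lmo2 +12.1 kb moved the other way. Its common percentiles were 39.4, 41.0, 33.5, 38.4 and 22.9 in Young Sham, 18.3, 19.8, 14.4 and 9.05 in Young Bleo, 9.98, 17.6, 13.9 and 17.9 in Aged Sham, and 9.999, 10.01, 18.9, 13.02 and 3.17 in Aged Bleo. All samples outside Young Sham were below the lowest Young Sham sample, including Young Bleo 4 in the same lane, at 9.05. Fragments at its summit ran from 23 to 38 in Young Sham and from 11 to 27 elsewhere. The differences were −19.7 points in Young Bleo (SE 3.95, limma adjusted p = 0.0123), −20.2 in Aged Sham (SE 3.95, adjusted p = 0.0237) and −24.0 in Aged Bleo (SE 3.73, adjusted p = 0.00134). With lane as a covariate they were −26.0, −29.7 and −36.5, with adjusted p of 0.332, 0.441 and 0.475, and in log2 fragments the adjusted p were 0.147, 0.307 and 0.0528. In list percentiles the differences were −14.4, −24.2 and −30.1, with limma adjusted p of 0.497, 0.0945 and 0.0139. The Aged Sham call was lost on leaving out Young Sham 1, 2 or 4 or Aged Sham 1 or 3 (adjusted p of up to 0.0643).

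Only Aged Bleo against Young Sham gave further calls, all of them stronger, with the lane never shared between the 2 groups. Gata2 −4.2 kb stood at common percentiles of 33.7, 37.0, 36.0, 30.1 and 42.4 in Young Sham and 55.9, 53.0, 61.8, 54.2 and 60.8 in Aged Bleo, a difference of 21.3 (SE 4.21, limma adjusted p = 0.00586). Young Bleo and Aged Sham lay between, with means of 47.0 ± 5.13 and 43.1 ± 5.64 (SD, n = 4 each). Gata2 −41.5 kb rose from 13.2 ± 4.78 to 34.4 ± 14.3 (SD, n = 5 each), by 21.2 (SE 5.38, adjusted p = 0.0196), but its lowest Aged Bleo sample, at 16.5, was below the highest Young Sham sample, at 20.7. An intronic region of Sox17 at +3.9 kb rose to 36.8 ± 5.43 in Aged Bleo, by 22.8 (SE 4.47, adjusted p = 0.00541), but in log2 fragments it did not pass (limma adjusted p = 0.138). At the promoters, Sox4 rose by 17.4 points (SE 4.34, adjusted p = 0.0179) and Lmo2 −0.3 kb by 16.4 (SE 3.13, adjusted p = 0.00478), the latter from 16.0 ± 3.56 to 32.4 ± 5.37 with no overlap of the samples. Sox18 at its promoter rose by 8.499 points (SE 2.66, adjusted p = 0.0475), a call that held in only 3 of 18 fits without 1 sample, those without Young Sham 5, Aged Sham 4 or Aged Bleo 2 (adjusted p of up to 0.1103).

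At Lmo2 −0.3 kb the rise in percentile was not a rise in fragments, for the log2 fragments differed by −0.04 (limma adjusted p = 0.804). With lane as a covariate the 8 regions had adjusted p of at least 0.475, and 0 of all 17432 regions passed, but the differences did not vanish. They were 28.3 points at Sox17 +3.9 kb, 18.3 at Gata2 −4.2 kb, 29.8 at Gata2 −41.5 kb and 23.8 at Lmo2 −0.3 kb. At the promoters of Sox4 and Sox18 they were 24.3 and 11.9 points, and the SE of these regions rose to between 7.46 and 15.5. In list percentiles the 7 stronger ones had adjusted p of at least 0.0541. The strongest distal regions, Sox17 −74.5 kb, Mef2c −1.3 kb and Mef2a −78.8 kb, did not pass in any contrast of common percentiles. In quantile-normalised log2 fragments, chosen after seeing the data, Sox17 −74.5 kb was lower than in Young Sham by −0.36 in Aged Sham (limma adjusted p = 0.00503), −0.40 in Young Bleo (adjusted p = 0.000595) and −0.54 in Aged Bleo (adjusted p = 3.01e-06). On that scale Aged Sham against Young Sham passed 2 of the 36 (8.97% of all regions), Young Bleo against Young Sham 10 (20.8%), and Aged Bleo against Young Sham 12 (35.1%). Passing on this scale in Aged Bleo against Young Sham but not on common percentiles were, among others, the intronic Gata2 −1.3 kb, by 0.61 (adjusted p = 0.000991), and Mef2c −5.4 kb, by −0.60 (adjusted p = 0.0235). In Young Bleo the intronic Mef2c +7.5 kb differed by −0.73 (adjusted p = 0.0199), Sox7 −35.1 kb by −0.65 (adjusted p = 0.00186) and Mef2c −0.5 kb by −0.38 (adjusted p = 0.0297). The other calls in Young Bleo were higher, with adjusted p of 0.00807 to 0.0353. They were the promoters of Sox7, Sox18 and Sox4, by 0.37, 0.37 and 0.31, Sox7 +19.2 kb by 0.53, Sox17 +3.9 kb by 0.50 and Sox18 −4.1 kb by 0.45. Over the 36 regions the median difference of Aged Bleo from Young Sham was 1.79 points, against 0.34 over all 17432, and 15 of the 36 (41.7%) had an unadjusted p of at most 0.05 in limma, against 27.8% of all.

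**Figure D4:**
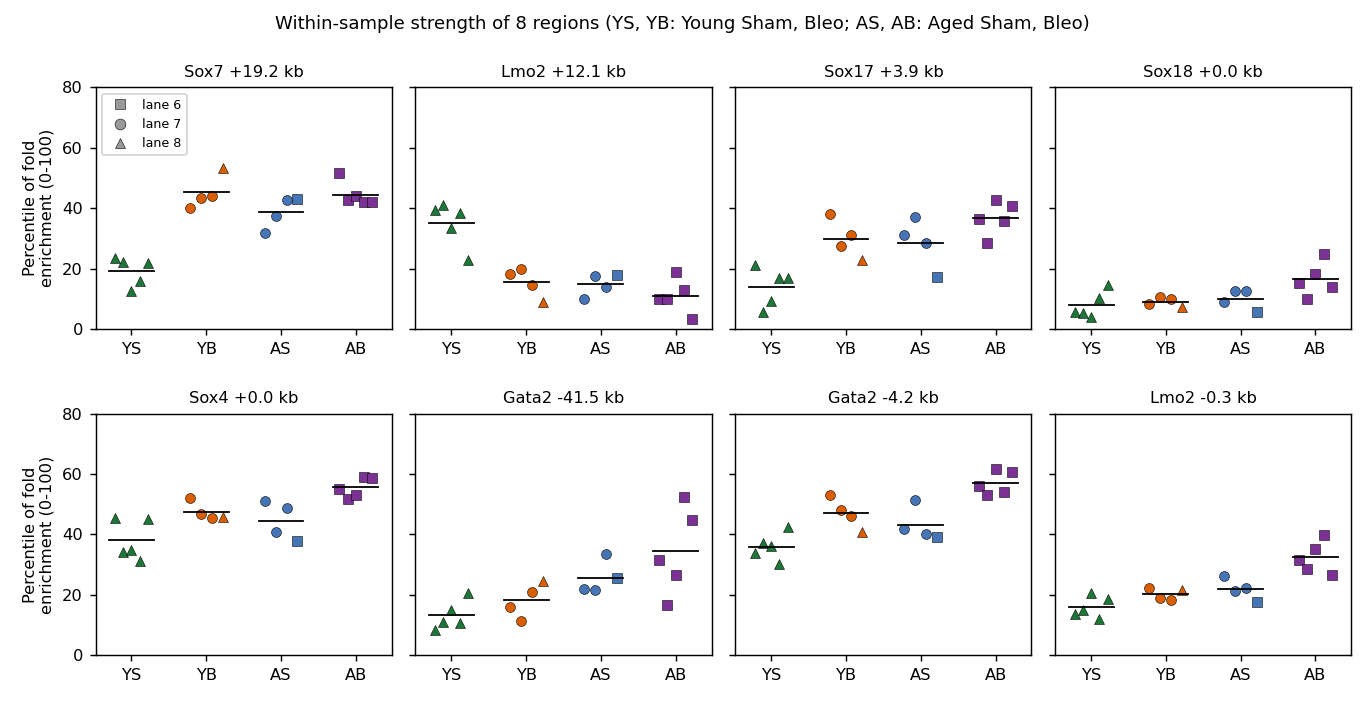
Common percentile (y axis, drawn from 0 to 80) of 8 regions of the set that differed in strength between groups, with 1 point for each sample, marker shapes for the sequencing lane and a bar for the group mean. Young Sham is the lowest group at Sox7 +19.2 kb and the highest at Lmo2 +12.1 kb, and Young Bleo 4, from the lane of Young Sham, lies with the other groups at both.

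In aged mice, injury was tested as Aged Bleo against Aged Sham. No region of the 74 was called in fewer (0.41% of all regions) or more (0.475%) samples by Fisher's exact test, and no gene changed in its number of called regions (1.55% of all genes). By direction, 15 regions (20.3%) were called in a smaller and 17 (22.97%) in a larger share of Aged Bleo samples, against 22.1% and 33.0% of all regions. Between the injured groups, Aged Bleo and Young Bleo, again no region passed in either direction (2.44% of all regions less and 0.123% more) and no gene (6.51% of all). By direction 28 regions (37.8%) were called in a smaller share of Aged Bleo samples and 5 (6.76%) in a larger one, against 45.6% and 11.5% of all regions. Aged Bleo against Young Sham, which differ in age and injury, gave the region at Sox17 −19.4 kb already described as the only one called less (3.01% of all regions) and none called more (0.201%). Leaving out each of the 10 samples in turn moved the number of regions passing between 1 and 5 (3.73% to 5.86% of all regions). The smallest adjusted p was 1 in each of these 3 comparisons. With lists cut to the same length none of 57 regions was called less in Aged Bleo than in Young Sham (1.97% of all regions) and 1 was called more (1.09% of all), Gata2 +6.9 kb, in 5 of 5 against 1 of 5 samples. In Aged Bleo against Aged Sham 1 region passed, Tal1 +5.5 kb, called less (1.75%, against 1.48% of all regions in either direction). In Aged Bleo against Young Bleo 1 was called less, Gata2 +4.6 kb (1.05% of all regions), and 4 more (0.689% of all). In either direction the share was 8.77%, against 1.74% of all. These 4 were Gata2 +6.9 kb and Mef2a +128.8 kb, each in 5 of 5 against 0 of 4 samples (Fisher's exact p = 0.00794), Gata2 +7.5 kb and Sox4 −4.3 kb.

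RefSeq promoter sequences (mm10, 250 bases before to 50 after the start) were matched for 5 of the 10 genes, Sox4, Gata2, Tal1, Mef2c and Mef2a, with 9 entries. GATA and E-box letters both occurred in an entry of Tal1 at chr4:115056176-115056475, letters that 11.2% and 17.2% of all 32851 promoters hold. Mef2a had an entry with MEF2 letters (4.30% of all promoters), and Mef2c had ETS letters at chr13:83523406-83523705 (13.3%) and E-box letters at chr13:83573357-83573656.

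Relatives of the set, 33 genes in 4 families with 227 regions, were counted in the same way, and their counts are to be read against the shares of all regions. These are 4.9% less and 0.264% more in Aged Sham, 1.96% less and 3.98% more in Young Bleo, and 3.01% less and 0.201% more in Aged Bleo, each against Young Sham, 0.41% less and 0.475% more in Aged Bleo against Aged Sham, and 2.44% less and 0.123% more in Aged Bleo against Young Bleo. Among 50 regions of other SOX genes, 2 were called in fewer Aged Sham, 4 in more Young Bleo and 1 in fewer Aged Bleo samples than in Young Sham, and 2 in fewer Aged Bleo than Young Bleo samples. The 4 include Sox13 −76.5 kb, called in none of 5 Young Sham and all 4 Young Bleo samples (Fisher's exact p = 0.00794). The last 2 were both at Sox6, its promoter at −0.5 kb, called in 4 of 4 Young Bleo and 1 of 5 Aged Bleo samples, and a region at +390.5 kb, in 3 of 4 and 0 of 5 (Fisher's exact p = 0.0476 for each). Neither had a peak in a sham list, so both met the limit of 2 lists only through Young Bleo, the group that is high.

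Among 118 regions of partners of TAL1 and LMO2, such as LYL1, the LIM-binding LDB proteins and the ID inhibitors, 6 were called in fewer Aged Sham samples, 4 in fewer and 4 in more Young Bleo samples, and 6 in fewer Aged Bleo samples than in Young Sham, and 1 in fewer Aged Bleo than Young Bleo samples. A pair of intronic regions of Ldb2, at +63.1 and +247.5 kb, was called in all 5 Young Sham samples and in no Young Bleo sample (Fisher's exact p = 0.00794 for each). That at +63.1 kb had a peak in only 1 other list, so it met the limit of 2 lists only through Young Sham. The 27 regions of GATA relatives gave 1 less in Aged Sham, 1 more in Young Bleo and 1 more in Aged Bleo than in Young Sham. The last was Gata3 +245.4 kb, called in 5 Aged Bleo and 4 Young Bleo samples but in only 1 sample of each sham group, and it was also the 1 region called more in Aged Bleo than in Aged Sham. Among 32 regions of MEF2 relatives, which include the deacetylases that repress MEF2, 2 were less called in Aged Sham and 1 more in Young Bleo, and none passed in the other comparisons. One of the former lies in an intron of Hdac4, called in 4 of 5 Young Sham and 0 of 4 Aged Sham samples (Fisher's exact p = 0.0476). The TSS nearest to this region was that of Twist2. No region of the relatives passed after adjustment over all regions.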

How the data were processed

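ATAC-seq peak lists of 18 samples were analysed. The authors aligned read pairs to mm10 with BWA, kept pairs with at least 1 uniquely placed end, removed duplicates and called peaks with MACS2 at an FDR of 1% in each sample separately. The deposited lists give, for every peak, a fold enrichment over background (a ratio), −log10 p and −log10 q values and a score that MACS2 derives from the q-value. Read counts were not used here, so the study's count-based test of differential peaks was not repeated. From the deposited values, 19 mitochondrial peaks were left out, peaks were merged, and the fragments at each summit and the local background were solved from the fold enrichment and −log10 p. The background coverage ranged from 1.02 to 1.78 fragments between lists and the median summit held 26 to 35 fragments, which limits what the small peaks can show.

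For the presence of a peak, Fisher's exact test (two-sided) was run on each region with a threshold of 0.05, the number of called regions per gene was tested by an exact permutation of samples (absolute difference in means), and strength by limma (trend, all 4 groups in 1 fit) on percentiles of fold enrichment. All p-values were adjusted by Benjamini-Hochberg over all regions or genes. The genes, their relatives and the motifs were chosen with earlier results of these data known. Every promoter region, every region that passed the presence test on full lists or limma on common percentiles, and the strongest distal region of each gene were named. The regions limited to Young Sham, those named from alternative settings and Mef2c −143.5 kb were chosen after their values were seen. Alternatives were a −log10 q of at least 5, lists of equal length, at least 3 samples per region, 50% cover of the region, a limit of 100 kb, 5 other strength settings, the replicate block, and leaving out each sample. The lane was read from the list names. Scripts were tested on simulated data. Python 3.11.15, numpy 2.4.6, pandas 2.3.3, scipy 1.17.1, pysam 0.24.0, R 4.3.3 and limma 3.58.1 were used.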

Additional observations from a re-analysis of the deposited data

Results flagged for a closer look

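In 100 groups of 4 or 5 samples, 15 held a sample apart from the others by Dixon's criterion, which flags about 1 group in 20 by chance and is met by any single step in counts that are otherwise equal. The number of called regions was 6 against 5 in the others at Sox7 in Young Sham 4 and in Aged Sham 2. At Sox18 it was 4 against 3 in Young Sham 2 and 2 against 3 in Young Bleo 1, and at Sox4 it was 4 against 5 in Aged Bleo 5. Gata2 had 7 against 8 in Young Bleo 4, Gata6 had 2 against 1 in Aged Bleo 2, and Lmo2 had 3 against 2 in Aged Sham 4. Tal1 had 4 against 5 in Young Bleo 4 and 4 against 3 in Aged Sham 2. The widest gaps were at Mef2c in Young Bleo 4, with 8 against 10, and at Mef2a in Aged Sham 1, with 8 against 11, while Mef2a in Young Bleo 1 had 10 against 11. Young Bleo 4, the only Young Bleo sample of lane 8, was below the others at Gata2, Tal1 and Mef2c. On the scale of common percentiles, Sox7 +19.2 kb stood at 51.7 in Aged Bleo 1 against 41.9 to 44.2 in the other Aged Bleo samples, and Mef2c −0.5 kb at 10.8 in Young Bleo 1 against 16.8 to 17.2. By common percentile, none of the 36 regions called in every list moved in opposite directions with bleomycin in all samples of both ages. Genes and the other regions were not checked for this.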

How the results depend on the processing

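Counts of passing regions or genes stayed within 1.5 times the main count in 66 of 98 alternatives. In the order Aged Sham, Young Bleo and Aged Bleo against Young Sham, the tests gave 3, 2 and 1 regions by presence, 1, 0 and 1 genes, and 2, 2 and 8 regions by strength. With lists cut to equal length, which left 57 regions and 8 testable genes of the set, the comparisons moved to 6 regions and 4 genes in Young Bleo against Young Sham (6.84% of all regions and 18.8% of all genes passed), 0 genes in Aged Bleo against Young Sham (10.3% of genes), 1 region and 1 gene in Aged Bleo against Aged Sham (1.48% and 4.13%), and 5 regions and 3 genes in Aged Bleo against Young Bleo (1.74% and 5.23%); Tal1 then turned from −2.55 to 0.20 regions in Aged Sham against Young Sham. Sox17 −19.4 kb, Tal1 −8.5 kb and Mef2c +78.9 kb gave no value there. A −log10 q of at least 5 gave 2 of 9 genes in Aged Sham and 0 in Aged Bleo, each against Young Sham (20.4% and 9.29% of all genes), and at least 3 samples per region or a limit of 100 kb gave 2 genes in Aged Sham (18.9% and 17.4%). Requiring 50% cover gave, against Young Sham in the order above, 2, 1 and 2 genes (20.4%, 13.3% and 17.1% of all), and 1 gene in Aged Bleo against Young Bleo (15.4%), with 4, 1 and 2 regions in Aged Bleo against Young Sham, Aged Sham and Young Bleo (5.99%, 1.18% and 5.74% of all). For strength, lane as a covariate gave 0, 0 and 0 regions in that order, and percentiles among all peaks 0, 0 and 2. On log2 fold enrichment, Sox7 +19.2 kb still passed in Aged Sham and Young Bleo (limma adjusted p = 0.0379 and 0.00342). Lmo2 +12.1 kb did not pass there (limma adjusted p = 0.0814 and 0.0630). Regions called in at least 14 samples gave 0 and 5 in these groups (0.521% and 3.66% of all regions). Log2 fragments, chosen after seeing the data, gave 10 in Young Bleo against Young Sham (20.8% of all regions passed), 7 in Aged Bleo against Aged Sham (20.7%) and 1 in Aged Bleo against Young Bleo (2.46%), and turned Lmo2 −0.3 kb to −0.0436 in Aged Bleo against Young Sham. A replicate block gave 1 in Aged Sham, where 125 of all 17432 regions passed. Same-numbered samples correlated at −0.193 to 0.335 and differently numbered ones at −0.345 to 0.347, so the numbers did not pair samples. The causes of these changes were not tested.

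Leaving out each sample, of the groups compared for presence and of all groups for strength, gave 1 to 2, 0 to 1 and 1 to 5 regions by presence, 0 to 1, 0 to 0 and 0 to 5 genes, and 0 to 2, 2 to 2 and 7 to 11 regions by strength in the same order, and 0 to 0 in all others. In those fits 1.15% to 2.15%, 1.69% to 3.08% and 3.73% to 5.86% of all regions passed by presence, 4.79% to 11.7%, 4.01% to 8.26% and 7.87% to 16.4% of all genes, and 0.258% to 1.43%, 0.906% to 3.84% and 5.70% to 11.4% of all regions by strength. The 5 regions were found without Aged Bleo 1 (5.43% of all regions) and the 5 genes without Aged Bleo 2 (16.4% of all genes). Of the results for single regions and genes, 298 of 415 kept direction and threshold over all alternatives, 115 changed sides of the threshold and 2 turned direction. Groups of 4 and 5 samples limit the presence test, whose smallest possible p is 0.00794, and the lists hold no value for a region without a peak.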
